A study of Mus musculus with 24 samples.

Results

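The mRNA levels of 10 regulators of inflammatory signalling were followed in mouse pulmonary fibroblasts: Tnfaip3 (A20), its partners Tnip1, Tnip2 and Tnip3, the RNA-binding factors Zc3h12a, Zc3h12c and Zfp36, and the ubiquitin and kinase components Cyld, Birc3 and Ripk2. These 10 were chosen by name, with earlier results of these data known, out of 55291 genes in the count tables. All 10 were among the 16258 genes that passed the filter on low counts. Total RNA was sequenced from fibroblasts of wild-type (WT) and TLR4-/- C57BL/6 mice that had been exposed for 24 h to PBS, to recombinant mouse CIRP (rmCIRP, 1 μg/ml), to recombinant mouse TGF-β1 (rmTGF-β1, 2 ng/ml) or to both. CIRP is an RNA-binding protein that, once outside the cell, acts as a danger signal through TLR4, and TGF-β1 is the classical inducer of matrix production by fibroblasts. There were 8 conditions with 3 libraries each, 24 libraries in all. The cells came from pools of 3 to 4 lungs of mice aged 4 to 8 weeks, were used at passages 3 to 6 and spent the night before treatment in a serum-reduced medium. No label states that the 3 libraries of a condition came from separate mice, so that the p-values below measure only the spread between these libraries, which may be technical.

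A20 is a ubiquitin-editing enzyme that restrains NF-κB signalling downstream of Toll-like and TNF receptors, and it is itself an NF-κB target gene, which closes a negative feedback loop. The Tnip genes encode the ABIN proteins, which bind ubiquitin chains and bring A20 to signalling complexes. Zc3h12a (Regnase-1) is a ribonuclease that cleaves inflammatory mRNAs, Zc3h12c is a related protein of the same family, and Zfp36 (tristetraprolin) binds AU-rich elements and recruits the deadenylation machinery. Cyld removes ubiquitin chains from signalling adaptors. Birc3 (cIAP2) is a ubiquitin ligase of the TNF receptor complex, and Ripk2 is the adaptor kinase of the NOD receptors, a transmitter of the signal more than a brake on it.

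The libraries held between 29853346 and 39664606 reads assigned to genes. The targeted gene did not follow its label: Tlr4 stood at 718, 802 and 758 normalized counts in the WT libraries with PBS and at 927, 892 and 891 in those labelled TLR4-/-, a log2 difference of 0.25 ± 0.057 (adjusted p = 0.00123), and gene totals do not show which part of the gene the reads cover. Normalized counts are read counts divided by the DESeq2 size factor of the library. All 9 fibroblast markers were detected, with sums of 595123 to 821195 normalized counts, whereas the 3 lymphocyte markers were at or near 0. The sums of 3 epithelial markers, of which Epcam and Sftpc were at 0 in some libraries, were 6.92 to 105, and those of 3 endothelial markers 236 to 829. The 12 macrophage markers were present in every library, with sums of 71219.5 to 93266 in WT and of 307225 to 393281 in the libraries labelled TLR4-/-. In bulk RNA, fewer cells of a type and less RNA per cell cannot be told apart. Finally, the third libraries labelled TLR4-/- with rmTGF-β1 and with both proteins stood apart from their replicates: their counts differed from those of the other replicates with a chi-square, per degree of freedom, of 11.9 and 15.6 for the former and 45.7 and 31.3 for the latter, against 2.52 to 7.03 for every other pair. Log2 fold changes are given ± SE below, with the adjusted p. The main results of comparisons that include those conditions are also given without those libraries. The spread of each gene was estimated over all libraries together, so the SEs and adjusted p of every comparison draw on them too. Comparisons that do not include those conditions were fitted without those libraries only where the compared libraries were fitted alone.

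The regulators differed widely in their level. On the scale of normalized counts per kilobase of annotated exon, and in WT cells with PBS, Ripk2 was the most abundant at 1082 ± 14.8 (SD, n = 3), followed by Zfp36 at 596 ± 24.7, Zc3h12a at 509 ± 30.7 and Tnip1 at 477 ± 44.5, the last 2 within their spread. Tnip2 at 169 ± 13.8, Birc3 at 133 ± 7.46, Tnfaip3 at 109.6 ± 10.4 and Cyld at 107 ± 1.87 formed a lower tier in which Tnfaip3 and Cyld did not differ beyond their spread. Zc3h12c at 73.3 ± 2.79 and above all Tnip3 at 8.90 ± 1.85 were the least abundant. With rmCIRP the order changed, and Tnfaip3 moved to 573 ± 6.85 and Tnip1 to 1283 ± 27.6 per kilobase, the latter level with Ripk2 at 1279 ± 60.5.

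Since Tnfaip3 and its partners are known as NF-κB targets, the promoters of the members were searched for the NF-κB consensus and for the AP-1 letters TGANTCA on both strands. RefSeq promoter windows of 300 bases (250 before and 50 after the start, GRCm38.p6) were found for 9 of the 10 members, 11 windows in all since Tnfaip3 and Zc3h12c have a second start. An NF-κB match lay in 1 window each of 4 members, and 4.51% of all 32851 promoter windows held one. An AP-1 match, which shares no base with the NF-κB matches there, lay in 1 member, Tnfaip3, against 7.81% of all windows. The 250 bases before the start of those 4 genes are printed because they let the matches be compared between genes that did and did not respond; they run 5′ to 3′ on the strand of the gene, with the matches in capitals. The window of Tnfaip3 is chr10:19015411-19015660 on the minus strand, that of Tnip1 is chr11:54962941-54963190 on the minus strand, that of Tnip3 is chr6:65590148-65590397 on the plus strand and that of Cyld is chr8:88696778-88697027 on the plus strand.
Tnfaip3: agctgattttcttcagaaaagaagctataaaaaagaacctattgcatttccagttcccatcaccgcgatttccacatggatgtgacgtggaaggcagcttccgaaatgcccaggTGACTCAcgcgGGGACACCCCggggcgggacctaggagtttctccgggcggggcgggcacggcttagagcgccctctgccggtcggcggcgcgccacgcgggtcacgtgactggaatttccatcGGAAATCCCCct
Tnip1: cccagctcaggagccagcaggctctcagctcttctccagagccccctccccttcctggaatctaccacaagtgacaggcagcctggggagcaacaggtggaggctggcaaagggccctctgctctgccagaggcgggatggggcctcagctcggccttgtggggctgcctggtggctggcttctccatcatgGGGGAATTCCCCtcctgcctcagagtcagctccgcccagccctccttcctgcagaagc
Tnip3: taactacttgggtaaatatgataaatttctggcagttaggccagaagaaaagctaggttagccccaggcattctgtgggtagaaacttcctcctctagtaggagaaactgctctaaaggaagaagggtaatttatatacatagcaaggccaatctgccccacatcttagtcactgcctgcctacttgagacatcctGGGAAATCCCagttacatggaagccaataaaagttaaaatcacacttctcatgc
Cyld: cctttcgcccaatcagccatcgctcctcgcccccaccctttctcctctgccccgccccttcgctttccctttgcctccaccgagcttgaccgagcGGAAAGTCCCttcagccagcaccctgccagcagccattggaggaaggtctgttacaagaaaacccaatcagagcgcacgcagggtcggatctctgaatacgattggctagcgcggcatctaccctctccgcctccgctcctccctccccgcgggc
Tnfaip3 held 2 NF-κB matches, starting 12 and 125 bases before the transcription start, and the AP-1 match started 136 bases before it, next to the farther one. In Tnip1 a palindromic stretch gave 3 overlapping matches at 56 to 58 bases, Tnip3 held 1 match at 54 bases, and Cyld held 1 match at 155 bases. No match was found in these letters for Tnip2, Zc3h12a, Zc3h12c, Zfp36 and Birc3, in windows of this length. A match is a description of the sequence and no evidence of binding.

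The first comparison asked how the regulators responded to rmCIRP in WT fibroblasts. Of the 10 members, 9 rose at an adjusted p under 0.1 (edgeR quasi-likelihood test with Benjamini-Hochberg adjustment over all genes tested) and none fell, where 43.9% of all genes were called, 19.8% higher and 24.1% lower. The libraries of all 10 members did not overlap, 9 above and Cyld below, as was the case for 50.8% of all genes. The members' median log2 fold change was 0.89, against -0.02 over all genes tested. Tnfaip3 rose the most, from 705, 825 and 845 normalized counts in the PBS libraries to 4085, 4179 and 4159.9 with rmCIRP. This was a change of 2.38 ± 0.16 (adjusted p = 4.95e-11) on the log2 scale, a 5.21-fold increase. The 3 treated libraries lay close together and far above every PBS library.

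**Figure D1:**
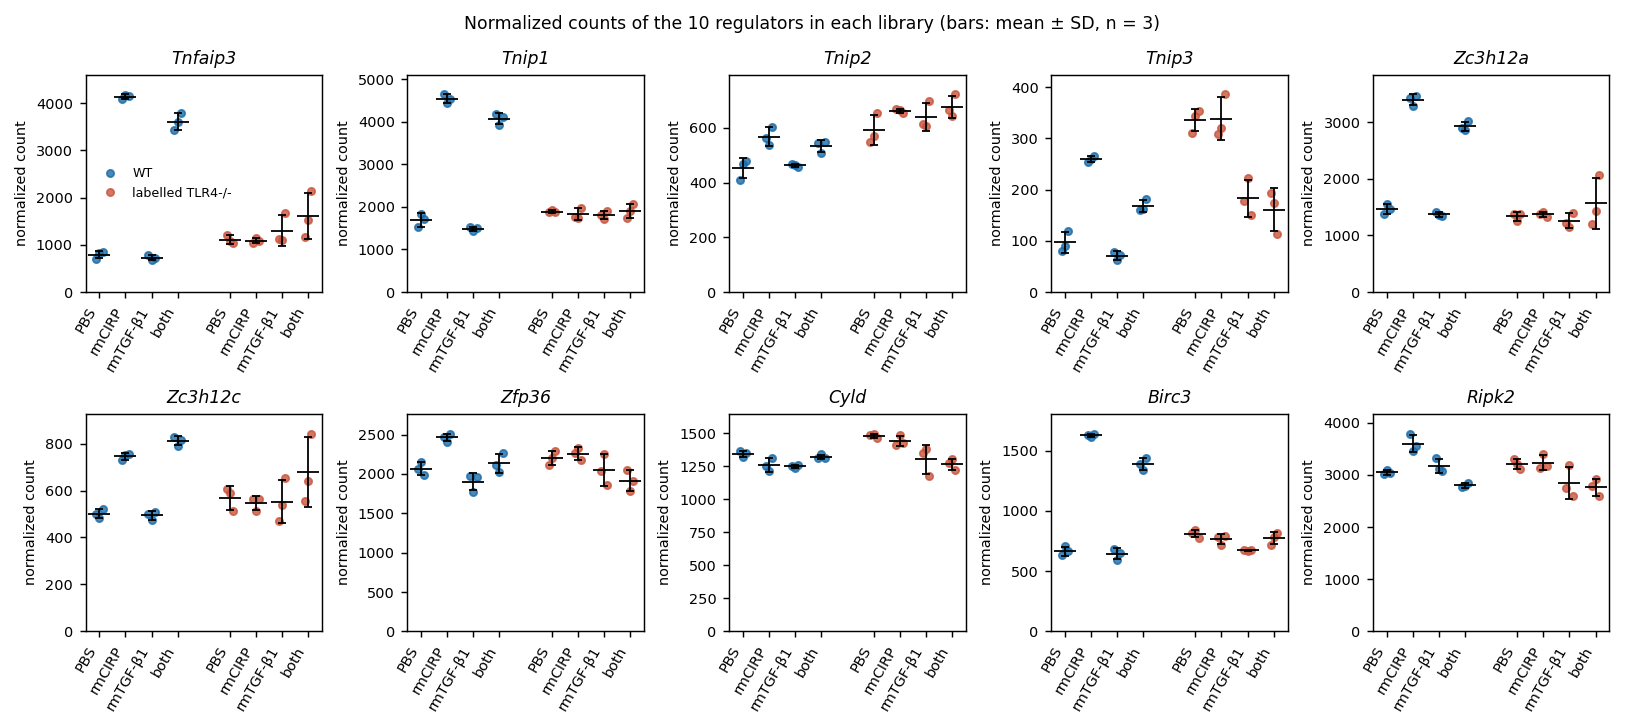
Normalized counts of each regulator (vertical axis, linear and starting at 0) in every library of the 8 conditions, with bars for the mean ± SD of 3 libraries. In WT (blue), Tnfaip3, Tnip1, Zc3h12a and Birc3 stood high in the rmCIRP and combined conditions, whereas in the libraries labelled TLR4-/- (red) Tnfaip3 spread from 1164 to 2143 with both proteins.

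The A20 partners moved unequally. Tnip1 went from 1517, 1826 and 1724 to 4642, 4448 and 4532 normalized counts, a log2 change of 1.42 ± 0.062 (adjusted p = 5.61e-14). Tnip3, the least abundant, went from 80.8, 90.9 and 119.7 to 254, 260.3 and 266, a log2 change of 1.42 ± 0.17 (adjusted p = 6.04e-07). Both rose about as much on the log2 scale, although Tnip3 carried the larger error. Tnip2 rose far less, from 411, 469 and 479.8 to 562, 537 and 605, with a log2 change of 0.32 ± 0.073 (adjusted p = 0.0014).

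Among the RNA-binding factors, the ribonuclease Zc3h12a led the response. It went from 1382, 1558 and 1460.3 to 3429.6, 3284 and 3470.4 normalized counts, a log2 change of 1.21 ± 0.11 (adjusted p = 2.04e-08). Its relative Zc3h12c went from 501, 483 and 521 to 730.1, 750.0 and 757, a log2 change of 0.57 ± 0.11 (adjusted p = 0.000372), a smaller step with no overlap between libraries. Zfp36 was abundant before treatment and rose only from 2067, 2154 and 1982 to 2468, 2413 and 2511, a log2 change of 0.25 ± 0.062 (adjusted p = 0.0032).

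Of the remaining regulators, Birc3 responded strongly, from 631, 706 and 663 to 1632, 1613 and 1639 normalized counts and by 1.28 ± 0.056 (adjusted p = 4.79e-14) on the log2 scale. Ripk2 rose slightly, from 3019, 3096 and 3029.8 to 3791, 3464 and 3546, by 0.23 ± 0.058 (adjusted p = 0.00281). The deubiquitinase Cyld was the exception. It stood at 1363, 1318 and 1352 with PBS and at 1253, 1212 and 1315 with rmCIRP, each treated library below each control, and the log2 fold change of -0.098 ± 0.048 (adjusted p = 0.112) did not pass the threshold. The macrophage marker sum was 85716 to 93266 normalized counts with PBS and 72719 to 77114 with rmCIRP in WT, with 5 of the 12 markers higher and 7 lower. Most of that sum was Lyz2, at 78175 ± 3614 with PBS and 62462 ± 1809.6 with rmCIRP, whereas Adgre1 stood at 2033 ± 171 and 4014 ± 107 (SD, n = 3). The part of these markers in the rise of the 9 regulators was not tested. All 9 calls held in every alternative fit and with any 1 of the 6 compared libraries left out.

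Genes of the same pathways moved less uniformly. In this comparison, rmCIRP against PBS in WT, 19.8% of all genes were called higher and 24.1% lower. Of 15 further genes of ubiquitin-related pathways, not all of which edit ubiquitin chains, 7 rose and 2 fell with rmCIRP in WT, with a median log2 fold change of 0.04. They were led by Usp18, an interferon-induced protease, at 6.20 ± 0.47 (adjusted p = 4.22e-10), Trim30a at 3.72 ± 0.17 (adjusted p = 1.52e-13) and the ubiquitin ligase Peli1 at 0.55 ± 0.051 (adjusted p = 1.38e-08). Of 15 genes that act on mRNA decay or stability, in either direction, 7 rose and 3 fell, with a median of 0.10. The Zfp36 relatives went opposite ways, Zfp36l1 by 0.70 ± 0.070 (adjusted p = 4.36e-08) and Zfp36l2 by -0.41 ± 0.062 (adjusted p = 1.75e-05), and N4bp1, an inhibitor of NF-κB signalling, rose by 0.89 ± 0.057 (adjusted p = 2.87e-11). Of 19 genes of RIPK, NOD and IAP signalling, 9 rose and 2 fell, with a median of 0.14. They included the adaptor Traf1 at 4.61 ± 0.17 (adjusted p = 2.14e-15), the Ripk2 partner Nod2 at 3.18 ± 0.23 (adjusted p = 2.94e-10) and Cflar, an inhibitor of caspase-8, at 0.65 ± 0.099 (adjusted p = 2.02e-05). The members' median of 0.89 stood above the medians of these 3 lists. It was near the 0.80 of other feedback inhibitors and below the 3.15 of transcripts that Zfp36 or Zc3h12a are known to clear. Members and lists were chosen with earlier results of these data known, so this order describes them and tests nothing.

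Other feedback inhibitors and the transcripts that Zfp36 or Zc3h12a are known to clear were counted in the same comparison. Again the shares over all genes were 19.8% higher and 24.1% lower. Of the former, 19 of 20 were tested, 13 rose and 2 fell, with a median log2 fold change of 0.80. The interleukin-1 antagonist Il1rn went up by 2.99 ± 0.15 (adjusted p = 7.15e-13) and the cytokine-signalling inhibitor Socs1 by 1.68 ± 0.14 (adjusted p = 2.57e-09), while Il10 had at most 2 raw counts in any WT PBS library and a mean of 131 ± 44.3 normalized counts with rmCIRP. Of 15 known decay targets, 15 rose and 0 fell, with a median of 3.15. Il1b stood at 17.1 ± 4.20 normalized counts with PBS and at 16076 ± 670.4 with rmCIRP, and Cxcl2 at 175 ± 42.0 and 14883 ± 766 (SD, n = 3). Il12b had 0 raw counts in the PBS libraries and a mean of 1071 ± 168 normalized counts with rmCIRP. The mRNAs of Zc3h12a and Zfp36 and those of their known targets were thus higher together at 24 h.

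The same exposure was then examined in the libraries labelled TLR4-/-. None of the 10 members was called by edgeR, 1 had an unadjusted p under 0.05, and DESeq2 called none of them. This was also the background, with 0% of genes called by edgeR, 1136 genes at an unadjusted p under 0.05 and 33 genes called by DESeq2. Tnfaip3 stood at 1212, 1085 and 1043 normalized counts with PBS and at 1036, 1147 and 1090.2 with rmCIRP. The libraries overlapped, and the log2 fold change of -0.023 had a 95% interval of -0.33 to 0.29. Corresponding intervals were -0.16 to 0.084 for Tnip1, -0.19 to 0.031 for Birc3 and -0.19 to 0.28 for Zc3h12a, none of which reached the WT estimates. Tnip2 was the member with the unadjusted p under 0.05. It stood at 550.3, 570.1 and 653 with PBS and at 669.5, 664 and 656 with rmCIRP, a log2 change of 0.17 ± 0.071 (adjusted p = 0.623). Tnip2 libraries did not overlap in this comparison, nor did those of 13.7% of all genes.

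Whether the genotypes responded unequally to rmCIRP was tested with an interaction term. For 8 of the 10 members the response was smaller in the libraries labelled TLR4-/- than in WT, where 31.4% of all genes were called, 17.1% upward and 14.3% downward. The log2 difference was -2.41 ± 0.22 (adjusted p = 3.42e-08) for Tnfaip3, -1.46 ± 0.088 (adjusted p = 5.6e-11) for Tnip1 and -1.36 ± 0.080 (adjusted p = 3.24e-11) for Birc3. In linear terms, the Tnfaip3 response was 5.30-fold smaller and the Tnip1 response 2.75-fold smaller. Tnip3 differed by -1.40 ± 0.22 (adjusted p = 5.38e-05), Zc3h12a by -1.16 ± 0.16 (adjusted p = 1.57e-05) and Zc3h12c by -0.62 ± 0.16 (adjusted p = 0.0065). Differences were small for Ripk2, -0.22 ± 0.082 (adjusted p = 0.0558), and Zfp36, -0.20 ± 0.088 (adjusted p = 0.0976). For Tnip2 the difference of -0.15 ± 0.10 (adjusted p = 0.311) did not pass the threshold, with a 95% interval of -0.35 to 0.050, and Cyld showed 0.065 ± 0.067 (adjusted p = 0.526). The call for Ripk2 was lost without the third WT PBS library (-0.21, adjusted p = 0.1), without the first WT rmCIRP library (-0.18, adjusted p = 0.155), without the first labelled TLR4-/- PBS library (-0.21, adjusted p = 0.102) and without the third labelled TLR4-/- rmCIRP library (-0.20, adjusted p = 0.121). That for Zfp36 was lost without the third WT PBS library (-0.17, adjusted p = 0.211), without the first WT rmCIRP library (-0.20, adjusted p = 0.149), without the third WT rmCIRP library (-0.21, adjusted p = 0.123), without the second labelled TLR4-/- PBS library (-0.20, adjusted p = 0.142), without the third labelled TLR4-/- PBS library (-0.19, adjusted p = 0.143) and without the third labelled TLR4-/- rmCIRP library (-0.17, adjusted p = 0.209).

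**Figure D2:**
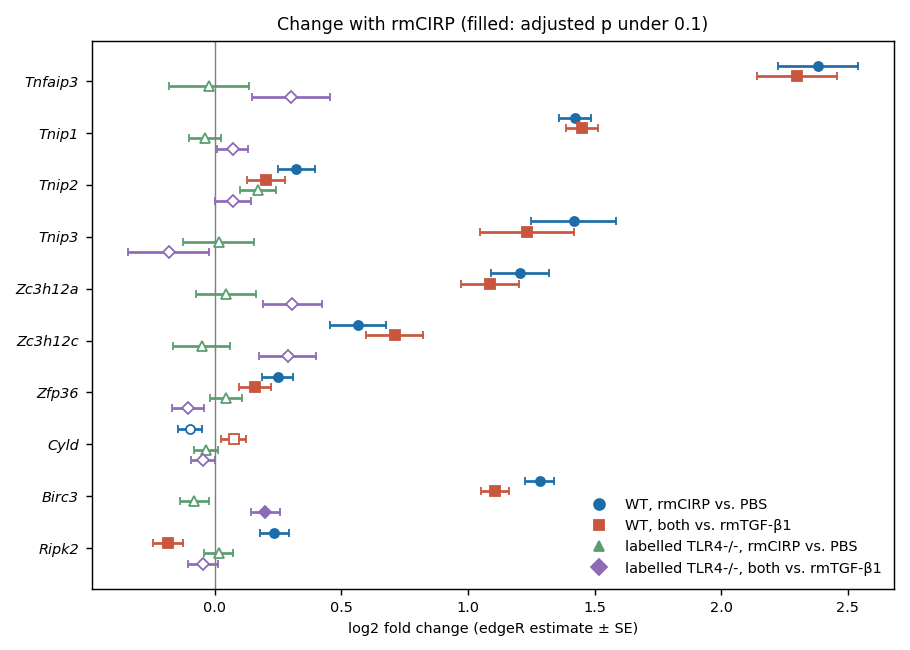
Log2 fold change (edgeR estimate ± SE) of each regulator with rmCIRP, alone against PBS and on top of rmTGF-β1, in WT and in the libraries labelled TLR4-/-; filled symbols had an adjusted p under 0.1. In WT, Tnfaip3 lies at 2.38 and 2.30, and Ripk2 is the one member whose 2 WT changes have opposite signs and both pass the threshold.

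Without any stimulus the libraries of the genotypes already differed. The lungs of each genotype were pooled apart, so genotype and pool of cells cannot be told apart in any comparison between the labels. With PBS, 6 members were higher in the libraries labelled TLR4-/- and none was lower, where 47.1% of all genes were called, 23.2% higher and 24% lower. Tnip3 stood out, at 80.8, 90.9 and 119.7 normalized counts in WT and 311, 343 and 353 in the other genotype, a log2 difference of 1.79 ± 0.16 (adjusted p = 5.64e-09). Its unstimulated level there exceeded that reached with rmCIRP in WT, and the libraries of these conditions did not overlap. Tnfaip3 was higher by 0.49 ± 0.16 (adjusted p = 0.0193), Tnip2 by 0.38 ± 0.073 (adjusted p = 0.00021) and Birc3 by 0.28 ± 0.058 (adjusted p = 0.000494). Tnip1, higher by 0.16 ± 0.063 (adjusted p = 0.0491), and Cyld, by 0.14 ± 0.047 (adjusted p = 0.0254), differed little. Zc3h12a at -0.14 ± 0.12 (adjusted p = 0.375), Zc3h12c at 0.18 ± 0.11 (adjusted p = 0.229), Zfp36 at 0.088 ± 0.063 (adjusted p = 0.283) and Ripk2 at 0.071 ± 0.058 (adjusted p = 0.356) did not pass. The call for Tnip1 was lost without the first WT PBS library (0.11, adjusted p = 0.21) and without the second labelled TLR4-/- PBS library (0.14, adjusted p = 0.134). A fit of these 6 libraries alone, with its own filter, scaling and spread and 15165 genes tested, called 10 members, 9 higher and 1 lower. Over all genes that fit called 7579, 3993 higher and 3586 lower.

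The macrophage markers moved with this contrast. All 12 were higher in the libraries labelled TLR4-/- with PBS, with a median log2 difference of 2.04, and their sum was 315489 to 361903 normalized counts against 85716 to 93266 in WT. C1qa was higher by 2.81 ± 0.091 (adjusted p = 1.6e-16) and the myeloid transcription factor Spi1 by 2.29 ± 0.083 (adjusted p = 6.33e-16). Their part in the higher levels of Tnip3, Tnfaip3, Tnip2 and the others was not tested.

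**Figure D3:**
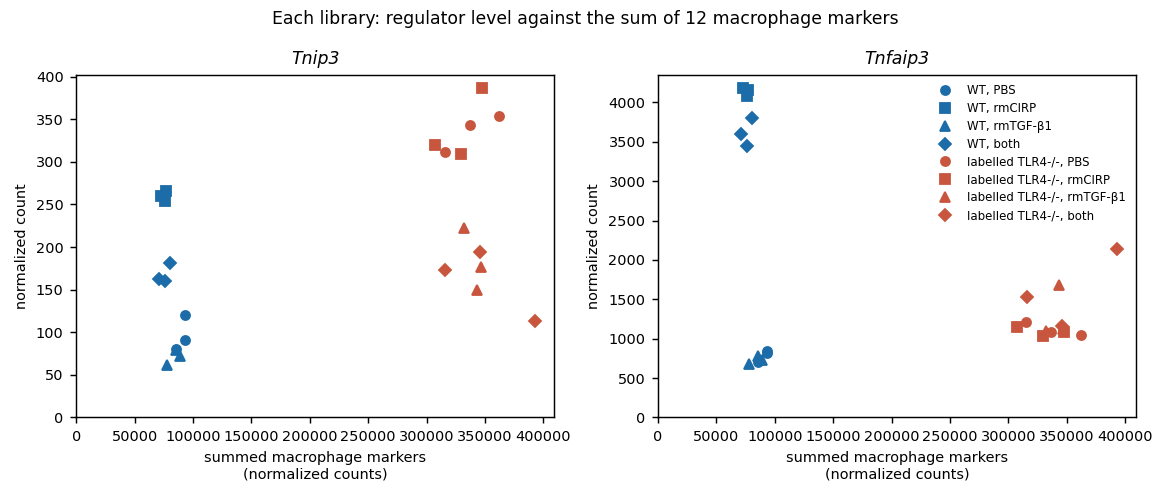
Normalized counts of Tnip3 (left) and Tnfaip3 (right) in each of the 24 libraries against the summed normalized counts of 12 macrophage markers (both axes linear, from 0). The genotypes separate along the horizontal axis, and most of the sum is Lyz2. In WT the sums were 85716 to 93266 with PBS and 72719 to 77114 with rmCIRP, while both genes stood higher with rmCIRP. In the libraries labelled TLR4-/-, Tnfaip3 overlapped between PBS and rmCIRP.

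With rmTGF-β1 alone, the regulators of WT cells moved little. Of 10 members, 1 fell and none rose, where 12.4% of all genes were called, 5.77% higher and 6.65% lower. Tnip1 went from 1517, 1826 and 1724 to 1528, 1424 and 1501 normalized counts, with overlapping libraries, a log2 change of -0.19 ± 0.064 (adjusted p = 0.0685), or 1.14-fold lower. That call was lost without the second PBS library (-0.12, adjusted p = 0.37), without the third PBS library (-0.18, adjusted p = 0.189), without the second rmTGF-β1 library (-0.16, adjusted p = 0.247) and without the third rmTGF-β1 library (-0.20, adjusted p = 0.115). Tnip3 stood at 78.7, 62.0 and 72.7 with rmTGF-β1, each library below each PBS library, with a log2 change of -0.45 ± 0.20 (adjusted p = 0.185). Zfp36 at -0.12 ± 0.063 (adjusted p = 0.255) and Cyld at -0.11 ± 0.047 (adjusted p = 0.168) likewise had no overlap, as had 29.7% of all genes, and did not pass, and Tnfaip3 was at -0.12 ± 0.17 (adjusted p = 0.75).

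In the libraries labelled TLR4-/-, 4 members fell with rmTGF-β1 and none rose, where 23.9% of all genes were called, 12.1% higher and 11.7% lower. Tnip3 fell by the largest amount of the 4, from 311, 343 and 353 to 177, 222 and 149.8 normalized counts, a log2 change of -0.88 ± 0.15 (adjusted p = 0.000229), or 1.84-fold. Birc3 fell from 814, 837 and 777 to 679, 664 and 672, with a log2 change of -0.26 ± 0.057 (adjusted p = 0.00256). Cyld changed by -0.18 ± 0.047 (adjusted p = 0.0106) and Ripk2 by -0.17 ± 0.058 (adjusted p = 0.0472). Without the third library the values were -0.75 (adjusted p = 8.02e-05) for Tnip3, -0.26 (adjusted p = 0.00491) for Birc3, -0.11 (adjusted p = 0.0646) for Cyld and -0.11 (adjusted p = 0.185) for Ripk2, and the Ripk2 call was lost. Ripk2 was also lost without the first PBS library (-0.15, adjusted p = 0.146), without the second PBS library (-0.17, adjusted p = 0.106), without the first rmTGF-β1 library (-0.15, adjusted p = 0.139) and without the third rmTGF-β1 library (-0.11, adjusted p = 0.285). When only the third rmTGF-β1 library was left out and the third combined library kept, Cyld stood at -0.11 (adjusted p = 0.1002) and was not called. Ripk2 was not called either in a fit of the 6 libraries alone, at -0.17 (adjusted p = 0.124). Zc3h12a was at -0.078 ± 0.12 (adjusted p = 0.712) with all libraries and was called lower without the third ones, at -0.16 (adjusted p = 0.0944), in addition to Tnip3, Cyld and Birc3. Tnfaip3 showed 0.23 ± 0.16 (adjusted p = 0.341) with all libraries and -0.00038 (adjusted p = 0.999) without the third. The response to rmTGF-β1 did not pass the test of a genotype difference for any member by edgeR, where 0.0861% of all genes did, 0.0369% upward and 0.0492% downward; 2 members had an unadjusted p under 0.05, and DESeq2 called none. The difference was -0.43 ± 0.25 (adjusted p = 0.588) for Tnip3, -0.21 ± 0.082 (adjusted p = 0.36) for Birc3 and -0.22 ± 0.082 (adjusted p = 0.332) for Ripk2. Without the third libraries these were -0.30 (adjusted p = 0.587), -0.21 (adjusted p = 0.316) and -0.16 (adjusted p = 0.363). Ripk2 passed without the second rmTGF-β1 library labelled TLR4-/-, at -0.30 (adjusted p = 0.0621).

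**Figure D4:**
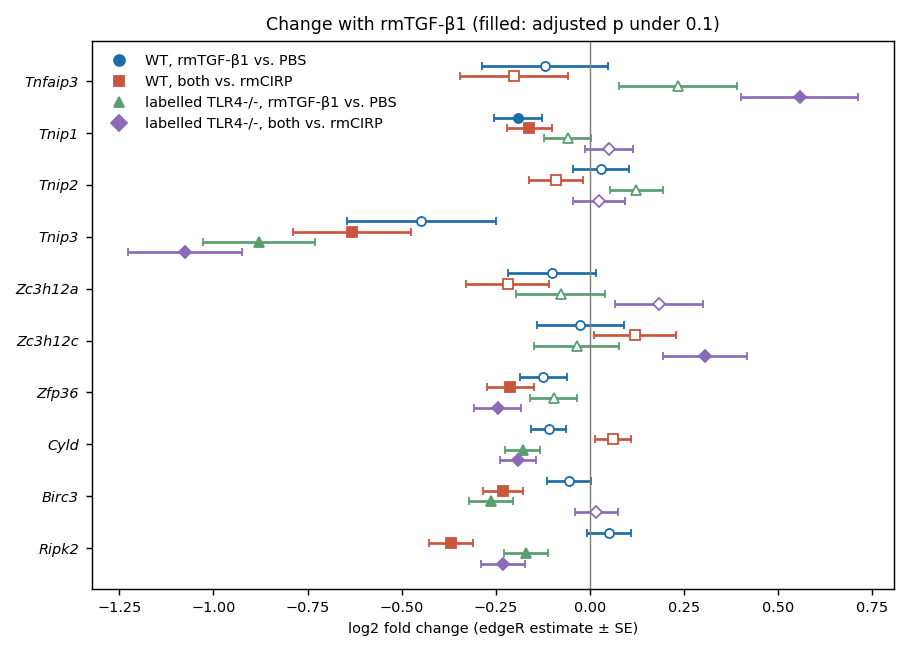
Log2 fold change (edgeR estimate ± SE) of each regulator with rmTGF-β1, alone against PBS and on top of rmCIRP, in WT and in the libraries labelled TLR4-/-; filled symbols had an adjusted p under 0.1. All 4 Tnip3 estimates lie below 0, from -1.08 to -0.45, with the WT estimate for rmTGF-β1 alone not called.

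The addition of rmTGF-β1 to rmCIRP was examined next. In WT, 5 members were lower with both proteins than with rmCIRP alone and none was higher, where 20.5% of all genes were called, 10% higher and 10.5% lower. Tnip3 went from 254, 260.3 and 266 normalized counts with rmCIRP to 160.1, 162 and 182 with both, a log2 change of -0.63 ± 0.16 (adjusted p = 0.00712). Ripk2 went from 3791, 3464 and 3546 to 2759, 2784 and 2848, a log2 change of -0.37 ± 0.059 (adjusted p = 0.000114) that placed every combined library below every PBS library as well. Birc3 changed by -0.23 ± 0.053 (adjusted p = 0.00386), Zfp36 by -0.21 ± 0.063 (adjusted p = 0.0237) and Tnip1 by -0.16 ± 0.060 (adjusted p = 0.0747). Tnfaip3 went from 4085, 4179 and 4159.9 to 3441, 3601 and 3797, each library lower, and its -0.20 ± 0.14 (adjusted p = 0.399) did not pass, nor did Zc3h12a at -0.22 ± 0.11 (adjusted p = 0.207) and Zc3h12c at 0.12 ± 0.11 (adjusted p = 0.528). A fit of these 6 libraries alone, with its own filter, scaling and spread and 15018 genes tested, called 8 members, 7 lower and 1 higher. Over all genes that fit called 4591, 2324 lower and 2267 higher. There Tnfaip3 at -0.20 (adjusted p = 0.00089) and Zc3h12a at -0.21 (adjusted p = 0.00031) were called lower. Zc3h12c, at 0.12 (adjusted p = 0.0702), was the 1 called higher. With no filter on low counts, Tnfaip3 (adjusted p = 0.00458) and Zc3h12a (adjusted p = 0.00156) were called lower as well. Tnip1 was lost when any 1 of the 6 libraries was left out, with estimates from -0.18 to -0.14 and adjusted p up to 0.226, and Zfp36 was lost without the second combined library (-0.18, adjusted p = 0.116).

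In the libraries labelled TLR4-/-, both proteins against rmCIRP alone gave 2 members higher and 4 lower, where 32.8% of all genes were called, 17.2% higher and 15.6% lower. Tnip3 fell from 309, 320.2 and 386 to 194, 174 and 113 normalized counts, a log2 change of -1.08 ± 0.15 (adjusted p = 3.38e-05) with all libraries and -0.89 (adjusted p = 7.56e-06) without the third ones. Zfp36 changed by -0.24 ± 0.063 (adjusted p = 0.00633), Ripk2 by -0.23 ± 0.058 (adjusted p = 0.00577) and Cyld by -0.19 ± 0.047 (adjusted p = 0.00491). Without the third libraries these were -0.24 (adjusted p = 0.00595), -0.19 (adjusted p = 0.013) and -0.16 (adjusted p = 0.0041). Tnfaip3 went up, from 1036, 1147 and 1090.2 to 1164, 1534 and 2143, by 0.56 ± 0.15 (adjusted p = 0.0109). The combined libraries of Tnfaip3 were far apart, and the change was 0.30 (adjusted p = 0.0141) without the third libraries of both conditions and 0.31 (adjusted p = 0.113), no longer called, without the third combined library alone. Zc3h12c rose by 0.30 ± 0.11 (adjusted p = 0.0485) with all libraries and stood at 0.13 (adjusted p = 0.264) without the third ones, and it was lost without the second rmCIRP library (0.27, adjusted p = 0.146) and without the third combined library (0.13, adjusted p = 0.405). Zc3h12a was at 0.18 ± 0.12 (adjusted p = 0.268) with all libraries, at -0.063 (adjusted p = 0.558) without the third ones and, called higher, at 0.35 (adjusted p = 0.00939) without the first combined library. In a fit of the 6 libraries alone, Tnfaip3 at 0.56 (adjusted p = 0.105) and Zc3h12c at 0.31 (adjusted p = 0.203) were not called.

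Seen from the side of rmCIRP, its addition to rmTGF-β1 in WT raised 8 members and lowered 1, where 42.2% of all genes were called, 20.5% higher and 21.7% lower. This comparison has other controls than that of rmCIRP with PBS. Tnfaip3 rose from 781, 684 and 728 normalized counts to 3441, 3601 and 3797, by 2.30 ± 0.16 (adjusted p = 1.1e-10). Tnip1 rose by 1.45 ± 0.063 (adjusted p = 4.33e-14), Tnip3 by 1.23 ± 0.19 (adjusted p = 1.76e-05), Birc3 by 1.11 ± 0.056 (adjusted p = 5.43e-13) and Zc3h12a by 1.09 ± 0.11 (adjusted p = 1.28e-07). Zc3h12c rose by 0.71 ± 0.11 (adjusted p = 3.13e-05). Tnip2 at 0.20 ± 0.074 (adjusted p = 0.036) and Zfp36 at 0.16 ± 0.063 (adjusted p = 0.0519) rose slightly, Tnip2 being lost without the third combined library (0.18, adjusted p = 0.112) and Zfp36 without the second rmTGF-β1 library (0.11, adjusted p = 0.249) and without the third combined library (0.11, adjusted p = 0.239). Cyld, at 0.074 ± 0.048 (adjusted p = 0.245), was not called.

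Ripk2 was the member that fell, from 3316, 3113 and 3071 to 2759, 2784 and 2848 normalized counts, a log2 change of -0.18 ± 0.059 (adjusted p = 0.0176). Its response to rmCIRP thus had one sign with PBS and the other with rmTGF-β1. The interaction of the 2 proteins in WT was -0.42 ± 0.083 (adjusted p = 0.0937) for Ripk2, where 0.0492% of all genes, 8 in number, were called, 0.0369% upward and 0.0123% downward. It was lost when any 1 of the 12 WT libraries was left out, with estimates from -0.45 to -0.38 and adjusted p up to 0.29. No other member passed, and the values were 0.17 ± 0.067 (adjusted p = 0.793) for Cyld, -0.18 ± 0.079 (adjusted p = 0.844) for Birc3 and -0.19 ± 0.25 (adjusted p = 0.987) for Tnip3.

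In the libraries labelled TLR4-/-, rmCIRP on top of rmTGF-β1 gave 1 member called, where 2.69% of all genes were, 1.56% higher and 1.13% lower. That background was unstable: the count of 437 genes became 0 without the first rmTGF-β1 library, 79 without the second and 2141 without the third, and it became 2674 without the first combined library, 738 without the second and 1 without the third. Birc3 went from 679, 664 and 672 to 717, 787 and 819 normalized counts, by 0.20 ± 0.057 (adjusted p = 0.0946). Without the third libraries it stood at 0.16 (adjusted p = 0.261) and was not called, and it was also lost without the first rmTGF-β1 library (0.21, adjusted p = 0.369), without the second rmTGF-β1 library (0.19, adjusted p = 0.25), without the second combined library (0.19, adjusted p = 0.131) and without the third combined library (0.16, adjusted p = 0.46). Tnfaip3 went from 1122, 1095 and 1683 to 1164, 1534 and 2143, Zc3h12a from 1226, 1143 and 1403 to 1193, 1437 and 2067 and Zc3h12c from 469.6, 537 and 651 to 553, 642 and 843. For all 3 genes the third library was the highest of both conditions, and the log2 fold changes of 0.30 ± 0.15 (adjusted p = 0.306), 0.31 ± 0.12 (adjusted p = 0.178) and 0.29 ± 0.11 (adjusted p = 0.183) did not pass. Without the third libraries of both conditions they were 0.28 (adjusted p = 0.129) for Tnfaip3, 0.15 (adjusted p = 0.332) for Zc3h12a and 0.25 (adjusted p = 0.121) for Zc3h12c. These values moved with single libraries. Without the first combined library all 3 passed, at 0.49 (adjusted p = 0.0257) for Tnfaip3, 0.47 (adjusted p = 0.00681) for Zc3h12a and 0.42 (adjusted p = 0.0169) for Zc3h12c. They also passed without the third rmTGF-β1 library, at 0.54 (adjusted p = 0.033) for Tnfaip3, 0.39 (adjusted p = 0.0637) for Zc3h12a and 0.43 (adjusted p = 0.0293) for Zc3h12c. Without the third combined library they were 0.048 (adjusted p = 0.961) for Tnfaip3, 0.061 (adjusted p = 0.882) for Zc3h12a and 0.11 (adjusted p = 0.819) for Zc3h12c. With no filter on low counts all 3 were called, and DESeq2 called Zc3h12a. The summed counts of the known decay targets were highest in the third libraries. For rmTGF-β1 alone the sums were 154918, 152891 and 207544 normalized counts. For the combined condition they were 157542, 216562 and 283799. Most of this was a single gene, Ptgs2, whose mean was 141725 ± 28626 in the former condition (SD, n = 3). In the latter it was 174897 ± 44623. The sums therefore do not show how the other targets moved. The third combined library also had the lowest fibroblast marker sum, 595123, the highest macrophage sum, 393281, and the highest endothelial sum of its genotype, 717. The part of these in the Tnfaip3, Zc3h12a and Zc3h12c levels was not tested.

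The companion lists in these other comparisons were counted in the same way. The genes named from them here were chosen after their values were seen. The test of unequal responses to rmCIRP called 31.4% of all genes, 17.1% with the higher and 14.3% with the lower change in the libraries labelled TLR4-/-. It called 6 of 15 ubiquitin-related genes, 9 of 19 genes of RIPK, NOD and IAP signalling and 14 of 15 decay targets. All of these had the lower log2 change in the libraries labelled TLR4-/-. Of the 15 genes of mRNA decay or stability the log2 change was higher there for 3 and lower for 3. Of the 19 feedback inhibitors tested it was higher for 2, Inpp5d and Dusp1, which had fallen with rmCIRP in WT, and lower for 12. When rmTGF-β1 was added to rmCIRP in WT, where 10% of all genes were higher and 10.5% lower, 3 feedback inhibitors rose and 8 fell. The phosphatases Dusp2 at 1.07 ± 0.25 (adjusted p = 0.00406) and Dusp4 at 0.66 ± 0.098 (adjusted p = 4.75e-05) went up and Dusp1 at -0.39 ± 0.085 (adjusted p = 0.00272) went down. Of the genes of mRNA decay or stability, 2 rose and 2 fell, with Zfp36l2 at -0.71 ± 0.065 (adjusted p = 8.81e-08) in the libraries where its relative Zfp36 was lower as well. Of the 15 decay targets, 7 fell and none rose. Of the RIPK, NOD and IAP genes 2 rose and 5 fell, among them the Birc3 relative Birc2 at -0.25 ± 0.052 (adjusted p = 0.00172) and the Ripk2 partner Nod1 at -0.29 ± 0.071 (adjusted p = 0.00627). With PBS, where 23.2% of all genes were higher and 24% lower in the libraries labelled TLR4-/-, 9 feedback inhibitors were higher and 1 lower there, led by the phosphatases Inpp5d at 2.41 ± 0.074 (adjusted p = 1.06e-16) and Ptpn6 at 1.99 ± 0.089 (adjusted p = 2.02e-14), and Zc3h12d, a relative of Zc3h12a, was higher by 2.39 ± 0.15 (adjusted p = 1.34e-11). The 12 macrophage markers were higher in the same comparison.

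The order of the 8 conditions differed between members. For Tnfaip3 the WT libraries with rmCIRP and then those with both proteins came first, each without overlap with the next, and the 4 conditions labelled TLR4-/- followed with overlapping neighbours, above WT with PBS and with rmTGF-β1, which overlapped. Tnip1, Zc3h12a and Birc3 shared the top 2 places with Tnfaip3, again without overlap. For Zc3h12c the combined WT condition was first, at 829, 792 and 816 normalized counts in its libraries, and rmCIRP alone second. Tnip3, Tnip2 and Cyld were highest in libraries labelled TLR4-/-. The means of Tnip3 ran from 338 ± 41.9 (SD, n = 3) with rmCIRP in that genotype down to 71.1 ± 8.45 in WT with rmTGF-β1, and for Tnip2 from 677 ± 41.3 down to 453 ± 37.1. Relative to its level, Cyld had the narrowest range of the 10, from 1479.8 ± 17.2 to 1249 ± 12.4.

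Genes with the most similar profile were looked for over the 24 libraries among 12310 genes, by Pearson's r of log2 normalized counts. These values describe 8 shared conditions and carry no p. For Tnfaip3 they were Slc7a11 (r = 0.988), Tnfrsf1b (0.986), Mmp13 (0.985), Il1rn (0.985) and Il1a (0.983). Tnip1 was most like Cxcl2 (0.993), Gch1 (0.991) and Acsl1 (0.991), and Birc3 most like Cxcl2 (0.988), Tnip1 (0.987) and Hcar2 (0.984). Zc3h12a was most like Nfkb1 (0.990), Nfkbia (0.987) and Lrrc8d (0.987), and Zc3h12c most like Serpinb2 (0.950), Slc7a11 (0.945) and Cflar (0.943). Tnip3 was most like Ets2 (0.957), Calcrl (0.950) and Ikbke (0.939), whereas Tnip2 was most like Rsrp1 (0.941), Fam20c (0.936) and Cd86 (0.935). Zfp36 (Samhd1, 0.910), Ripk2 (Mycl, 0.862) and Cyld (Mettl21a, 0.811) had less close neighbours.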

How the data were processed

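Total RNA was sequenced in 24 libraries made with a kit that marks the strand. The authors aligned the reads with STAR2 and counted them per GENCODE gene with ht-seq, and deposited 1 table of raw read counts per library. The submitters' processing notes name FastQC, HTSeq and the build NCBIM37; versions, annotation release and strand setting are not given in the sources used here, so reads of genes overlapping on opposite strands may not be told apart. The 5 tally lines of each table (14.5 to 16.1% of all counts) were left out of library sizes and tests. The members and the gene lists were chosen with earlier results of these data known.

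Counts were filtered with filterByExpr (16258 genes left), scaled by TMM and tested with edgeR 4.0.16 (R 4.3.3) by a quasi-likelihood F test with 1 mean for each of 8 conditions, in 12 comparisons that share control libraries. P-values were adjusted after Benjamini-Hochberg over all genes and called at an adjusted p under 0.1. SEs were derived from the estimate and the square root of its F statistic, and 95% intervals are 1.96 SE. Levels are counts divided by DESeq2 1.42.0 size factors. Exon lengths came from GENCODE M21 (GRCm38) and were used as lengths only, and promoters came from RefSeq on GRCm38.p6, a different build from the one in the notes. Members were always named; of each list, the 3 called genes with the largest change were eligible, and of similar genes the 5 nearest to Tnfaip3 and up to 3 nearest to the others. The test was tried on simulated counts. Alternatives were DESeq2, RLE scaling, other filters, a replicate block, fits on the compared libraries alone and leaving out each library. A library was left out only for the comparisons that include its condition. Leaving out the third libraries labelled TLR4-/- with rmTGF-β1 and with both proteins was chosen after seeing the data.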

Additional observations from a re-analysis of the deposited data

Results flagged for a closer look

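For 8 regulators the response to rmCIRP differed between the genotypes by the test of the difference itself (edgeR, adjusted p under 0.1). The log2 difference, response in the libraries labelled TLR4-/- minus response in WT, was -2.41 for Tnfaip3, -1.46 for Tnip1, -1.40 for Tnip3, -1.36 for Birc3, -1.16 for Zc3h12a and -0.62 for Zc3h12c. It was -0.22 for Ripk2 and -0.20 for Zfp36, the pair whose call was lost when some single libraries were left out. In WT, the response of Ripk2 to rmCIRP also differed with the presence of rmTGF-β1, by -0.42 on the log2 scale, at an adjusted p of 0.0937 that no fit with 1 library fewer kept under the threshold.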

How the results depend on the processing

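The numbers of members called were counted again under each alternative. With DESeq2, 2 members were called for both proteins against rmTGF-β1 in the libraries labelled TLR4-/-. With no filter on low counts, 4 members were called there, 2 for rmTGF-β1 against PBS in WT and 2 for the genotype difference in the rmTGF-β1 response. With only the libraries compared, 8 members were called for both proteins against rmCIRP in WT, 10 for the genotypes with PBS and 0 for both proteins against rmTGF-β1 in the libraries labelled TLR4-/-, where leaving out the third libraries with rmTGF-β1 and with both also gave 0. In that genotype, the fits of only the libraries compared also gave 4 in place of 6 members for both against rmCIRP, without Tnfaip3 and Zc3h12c, and 3 in place of 4 for rmTGF-β1 against PBS, without Ripk2. Over all genes, such fits called 4591 of 15018 for both against rmCIRP in WT and 7579 of 15165 for the genotypes with PBS. For both against rmTGF-β1 in the libraries labelled TLR4-/- it was 0 of 15248. RLE scaling and a mean count of at least 10 changed no call of the members examined. Leaving out single libraries gave 0 to 1 members for rmTGF-β1 against PBS in WT, 3 to 4 for both against rmCIRP in WT, 2 to 5 for rmTGF-β1 against PBS and 0 to 6 for both against rmTGF-β1 in the libraries labelled TLR4-/-, 0 to 1 for the genotype difference in the rmTGF-β1 response and 0 for the WT interaction. The cause was not tested.

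Among the single results examined, 3 changed direction, all of them uncalled. The Tnfaip3 response to rmCIRP in the libraries labelled TLR4-/- lay between -0.075 and 0.041 with single libraries left out, that of Tnfaip3 to rmTGF-β1 between -0.00021 and 0.34 (-0.00038 without the third libraries), and that of Zc3h12a to both against rmCIRP between -0.061 and 0.35 (-0.063 without the third libraries).

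With the replicate number as a block, which the labels do not say marks a shared culture or day, the genotype difference in the rmCIRP response kept 7 members, and Zfp36 was lost at -0.20 (adjusted p = 0.112). No other member examined changed its call under the replicate block, which for rmCIRP against PBS in WT gave 9. The mean correlation of residuals of same-numbered libraries was 0.017 over all conditions (-0.209 to 0.483), and in no comparison did every pair exceed 0.1. Both against rmTGF-β1 in the libraries labelled TLR4-/- came nearest, with a mean of 0.297 and a lowest pair of 0.0988; there the block gave 810 genes in place of 437. The numbers were not treated as pairs.

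Counts over all genes moved by over 1.5 times in several comparisons. For rmCIRP in the libraries labelled TLR4-/- they were 0 by edgeR, 33 by DESeq2, 149 without a filter, 29 with only the libraries compared and 1 with the block. For both against rmTGF-β1 there, 437 became 902, 1580, 0 and 810, in the same order. For both against rmCIRP there, 5329 became 2710 with only the libraries compared. The genotype difference in the rmTGF-β1 response went from 14 to 163 (DESeq2), 563 (no filter), 23 (mean count of at least 10), 22 (block) and 190 (without the third libraries), and the WT interaction from 8 to 37 (DESeq2), 198 (no filter) and 125 (only the libraries compared). With single libraries left out, the counts ran from 0 to 2674 for both against rmTGF-β1, 2517 to 3783 (3884 with all) for rmTGF-β1 against PBS and 0 to 9 for rmCIRP in the libraries labelled TLR4-/-, from 1029 to 1690 (2019 with all) for rmTGF-β1 in WT, from 0 to 119 for the genotype difference in the rmTGF-β1 response and from 2 to 7 for the WT interaction. The lowest count in WT came without the second rmTGF-β1 library, and that for rmTGF-β1 in the libraries labelled TLR4-/- without the third. In the fit over all libraries the SE in the WT response to rmCIRP was 0.16 for Tnfaip3 and 0.17 for Tnip3, against 0.05 for Cyld.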
